A study of Mus musculus with 10 samples.

Results

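The synaptic vesicle fusion machinery was examined through 8 genes chosen by name: the SNARE genes Snap25, Stx1a and Vamp2, the complexin genes Cplx1 and Cplx2, the calcium sensor gene Syt1, and the vesicle protein genes Syp and Syn1. They were taken as the gene identifiers of the deposited count table that map to these symbols, and all 8 were found among 56884 genes. All 8 also passed the filter on low counts that left 17622 genes for testing, with between 1793 and 78194 counts per mouse.

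The RNA-seq experiment asked what dihydrotestosterone (DHT), an androgen that aromatase cannot turn into estrogen, does to gene expression in the hippocampus of female mice with tauopathy. The 10 animals were ovary-intact P301S females, a line also named PS19, on a B6;C3 background and labelled hTau for the human mutant tau transgene that the mouse Prnp promoter drives in both groups. At 6 months of age, 5 mice were given an implant of SILASTIC tubing with 10 mm of DHT and 5 were given an empty tube (void), and hippocampi were collected after 12 weeks, at 9 to 9.5 months. Non-transgenic mice and males were not analysed here, so all values below describe hippocampi that express mutant tau. Total counts per library ran from 27188854 to 47113661 in the void group and from 33523527 to 45947784 in the DHT group. The library numbers in the sample titles ran from 4 to 11 for void and from 18 to 23 for DHT, so that any effect of library order and the effect of treatment cannot be told apart.

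Neurotransmitter is released when a synaptic vesicle fuses with the presynaptic membrane. Vamp2 on the vesicle and Stx1a with Snap25 on the plasma membrane wind into a SNARE complex that pulls the membranes together, complexins hold the assembled complex ready, and Syt1 senses the calcium that enters with an action potential and triggers fusion. Syp is an abundant membrane protein of the vesicle and Syn1 tethers vesicles in the reserve pool. In the hippocampus these genes are expressed mainly by neurons.

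Markers of the tissue were looked at first. All 8 hippocampal field genes were detected in every mouse, led by Zbtb20 with 748 ± 138 CPM (counts scaled to library size) in void and 763 ± 110 in DHT mice (mean ± SD, n = 5 per group here and below). Void mouse 5 stood lowest for Zbtb20 at 506 CPM. After its values were seen, Prox1 and C1ql2 of the dentate gyrus were also looked up, and void mouse 5 was lowest of the void group there too, at 118 and 33.0 CPM, while it was the highest of all mice for the cortical layer gene Tbr1, at 88.8 CPM. The part of tissue composition in the values of this mouse was not tested.

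None of the 8 genes differed between DHT and void mice in the edgeR test, at an adjusted p under 0.05 or at an unadjusted p under 0.05, and DESeq2 gave the same counts of 0 and 0. Across all genes, edgeR called 0.261% lower and 5.22% higher in DHT mice after adjustment, and 4.22% lower and 13.1% higher before it. With DESeq2 the shares were 1.09% lower and 5.89% higher after adjustment, and 5.95% lower and 10.7% higher before it. No member had all DHT mice on one side of all void mice, against 0.88% of tested genes with every DHT mouse below and 5.39% with every DHT mouse above. All 8 fitted log2 fold changes were below 0, as were 47.6% of those over all genes, but 6 of the 8 changed sign when libraries were scaled to neuron genes, a scaling that put 84.7% of all genes above 0 and left all 8 members below the median of all genes. The median log2 fold change was -0.084 for the 8 members, 0.0094 for all tested genes, and -0.040 for the 3477 genes within the members' range of void CPM, of which 2328 were below 0. In bulk tissue such as this, fewer neurons and less RNA per neuron cannot be told apart.

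**Figure D1:**
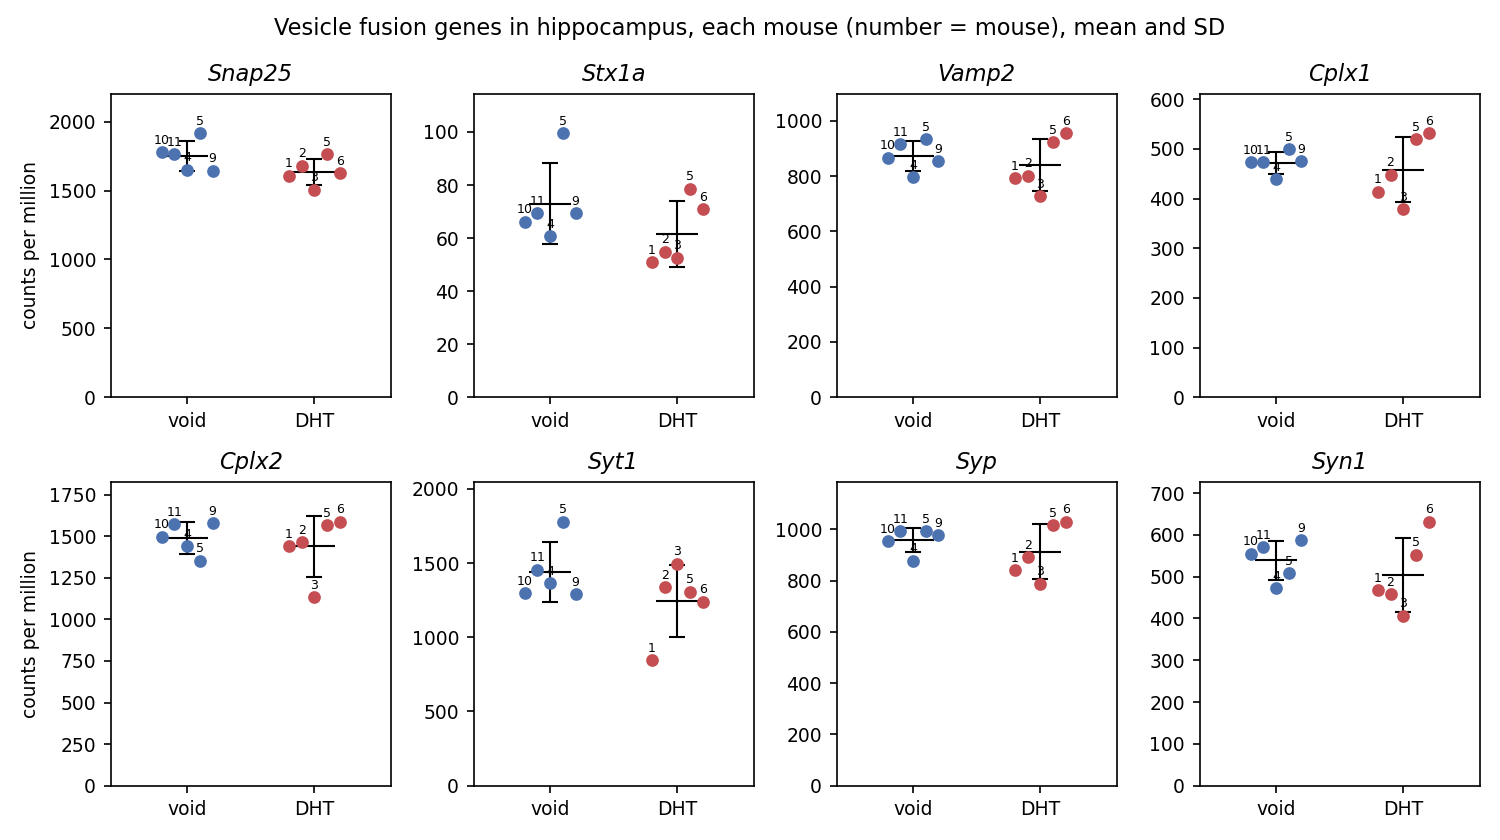
CPM of the 8 genes in each void (blue) and DHT (red) mouse, with the mouse number above each point, the mean as a horizontal line and the SD as a bar, on axes that start at 0. The groups overlap in every panel, and DHT mice 5 and 6 lie near or above the top of the void range for Vamp2, Cplx1 and Syp.

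Of the SNARE genes, Snap25 (ENSMUSG00000027273.14) encodes the palmitoylated SNARE of the presynaptic membrane. Its level was 1780, 1765, 1653, 1918 and 1644 CPM in void mice 10, 11, 4, 5 and 9, and 1610, 1681, 1507, 1765 and 1626 CPM in DHT mice 1, 2, 3, 5 and 6. DHT mice 1, 3 and 6 were below the whole void group, while DHT mice 2 and 5 lay within it. The log2 fold change was -0.097 with an SE of 0.062 (edgeR adjusted p = 0.490, 95% interval of the change -14.9% to 2.69%).

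Stx1a (ENSMUSG00000007207.11) encodes syntaxin 1A, the other SNARE of the presynaptic membrane. Void mice 10, 11, 4, 5 and 9 had 66.2, 69.4, 60.6, 99.6 and 69.4 CPM, and DHT mice 1, 2, 3, 5 and 6 had 50.8, 54.9, 52.6, 78.6 and 70.8 CPM. Void mouse 5 stood far above the other void mice, DHT mice 1, 2 and 3 were below all void mice, and DHT mice 5 and 6 were above every void mouse but that one. Its log2 fold change of -0.25 was the farthest from 0 among the members, but so was its SE, 0.15 (edgeR adjusted p = 0.471, 95% interval -33.1% to 6.05%). The log2 fold change was -0.11 without void mouse 5 and -0.39 without DHT mouse 5.

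Vamp2 (ENSMUSG00000020894.18) encodes synaptobrevin 2, the SNARE on the vesicle. It measured 867, 917, 797, 935 and 853 CPM in void mice 10, 11, 4, 5 and 9 against 792, 801, 728, 923 and 955 CPM in DHT mice 1, 2, 3, 5 and 6. The DHT group thus straddled the void group, with DHT mice 1 and 3 below it and DHT mouse 6 above it. The means of 874 ± 54.7 and 840 ± 95.5 CPM gave a log2 fold change of -0.057 with an SE of 0.080 (edgeR adjusted p = 0.804).

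Of the complexin genes, Cplx1 (ENSMUSG00000033615.10) gave the tightest void group of all 8, with 473, 474, 439, 500 and 476 CPM in void mice 10, 11, 4, 5 and 9, a coefficient of variation of 4.63%. The DHT mice 1, 2, 3, 5 and 6 spread over 414, 449, 379, 519 and 532 CPM, a coefficient of variation of 14.4%. DHT mice 1 and 3 were below and DHT mice 5 and 6 above every void mouse, so the group means of 472 and 459 CPM hid a wider scatter in the DHT group. The log2 fold change was -0.043 with an SE of 0.090 (edgeR adjusted p = 0.884).

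Cplx2 (ENSMUSG00000025867.9), the complexin gene prominent in excitatory forebrain neurons, had 1498, 1574, 1440, 1354 and 1578 CPM in void mice 10, 11, 4, 5 and 9. In DHT mice 1, 2, 3, 5 and 6 it had 1442, 1463, 1133, 1566 and 1588 CPM. Only DHT mouse 3 was below the void group, and DHT mouse 6 was above it. Void mouse 5, the highest for Snap25, Stx1a, Vamp2 and Cplx1 among void mice, was here the lowest of them. The log2 fold change of -0.050 (SE 0.088, edgeR adjusted p = 0.857) moved to -0.0005 without DHT mouse 3 and to -0.12 without DHT mouse 5.

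The calcium sensor gene Syt1 (ENSMUSG00000035864.15) measured 1299, 1455, 1364, 1779 and 1292 CPM in void mice 10, 11, 4, 5 and 9, and 845, 1336, 1496, 1308 and 1240 CPM in DHT mice 1, 2, 3, 5 and 6. A single animal at each end widened the distance between the means of 1438 ± 202 and 1245 ± 243 CPM: void mouse 5 was the highest and DHT mouse 1 the lowest by wide margins, and the other mice ran from 1292 to 1455 CPM in the void and from 1240 to 1496 CPM in the DHT group, with DHT mouse 6 also below every void mouse. Its log2 fold change was -0.21 with an SE of 0.14 (edgeR adjusted p = 0.509, 95% interval -29.7% to 6.62%). It was -0.13 without DHT mouse 1, -0.12 without void mouse 5, and reached -0.31 without DHT mouse 3. DHT mouse 3, the lowest mouse for Snap25, Vamp2, Cplx1, Cplx2, Syp and Syn1, was the highest DHT mouse for Syt1.

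Of the vesicle protein genes, Syp (ENSMUSG00000031144.16), which encodes synaptophysin, had 955, 992, 878, 992 and 978 CPM in void mice 10, 11, 4, 5 and 9 and 841, 891, 789, 1015 and 1030 CPM in DHT mice 1, 2, 3, 5 and 6. The pattern was that of Cplx1, with DHT mice 1 and 3 below and DHT mice 5 and 6 above all void mice. The log2 fold change was -0.071 with an SE of 0.079 (edgeR adjusted p = 0.733, 95% interval -15.5% to 7.25%). Syp shares 875 exonic bases with the antisense gene Gm14703, which had 143 to 237 counts per mouse beside at least 25872 for Syp, and whether counting used strand is not given in the sources used here.

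Syn1 (ENSMUSG00000037217.16), which encodes synapsin I, measured 555, 571, 473, 509 and 587 CPM in void mice 10, 11, 4, 5 and 9. It measured 468, 458, 406, 552 and 632 CPM in DHT mice 1, 2, 3, 5 and 6. DHT mice 1, 2 and 3 were below and DHT mouse 6 above the void group. The log2 fold change of -0.098 had an SE of 0.11 (edgeR adjusted p = 0.735, 95% interval -20.9% to 10.4%). With single mice left out, the log2 fold change ran from -0.162 to -0.0629 for Snap25, -0.129 to -0.0314 for Vamp2, -0.127 to -0.0075 for Cplx1, -0.148 to -0.0483 for Syp and -0.193 to -0.0566 for Syn1, so single mice moved the sizes by more than 1.5 times for every member. Over the 8 genes, the coefficient of variation was larger in DHT than in void mice for 6, all but Snap25 and Stx1a, a comparison of spreads for which no test was run.

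Neurons are the main source of these transcripts, so the members were set beside 15 general neuron genes outside the vesicle cycle. The summed level of the 15 was 6062, 6137, 5787, 6051 and 5976 CPM in void mice 10, 11, 4, 5 and 9 and 5227, 5644, 5151, 5573 and 5851 CPM in DHT mice 1, 2, 3, 5 and 6. All 15 had log2 fold changes below 0 (median -0.13) in the TMM-scaled fit, none was at 0 in any mouse, and the most abundant, Map2, had 2006 ± 126 CPM in void and 1772 ± 139 in DHT mice. Of the 15, edgeR called 0 after adjustment and 5 lower at an unadjusted p under 0.05 (0.261% and 4.22% lower over all genes). DESeq2 called 1 lower, Ina (log2 fold change -0.18, adjusted p = 0.0394), and 7 lower before adjustment (1.09% and 5.95% lower over all genes). Genes of neuron classes were not all lower: of 7 excitatory neuron genes 4 were above 0 (median 0.0025), with summed levels of 5405, 5682, 4813, 5042 and 5592 CPM in those void mice and 5352, 4927, 4237, 5614 and 6310 CPM in those DHT mice, led by Camk2a at 3143 ± 227 and 3103 ± 464 CPM. Of 9 inhibitory neuron genes 1 was above 0 (median -0.098), with summed levels of 894, 883, 942, 920 and 870 CPM and 678, 856, 852, 853 and 989 CPM, led by Gad1 at 380 ± 29.7 and 348 ± 32.9 CPM, and edgeR called none of either list. These lists are not free of vesicle genes. Slc17a7 (log2 fold change 0.0025), the excitatory median, and Slc32a1 (0.11), the only inhibitory gene above 0, are also among the other vesicle proteins described below. The mean log2 CPM of the 8 members was 9.43, 9.48, 9.32, 9.57 and 9.44 in those void mice and 9.18, 9.31, 9.17, 9.50 and 9.50 in those DHT mice. Across the 10 mice the members' mean z-score followed the neuron mean with a Pearson r of 0.905 and a Spearman rho of 0.733, or an r of 0.931 after centring each group on its mean and 0.675 without the 2 mice farthest from the median. The shared scaling of each library enters both sides of this comparison.

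Within each library the members can be read against the neuron genes directly. The members' mean log2 CPM minus that of the 15 neuron genes was 1.25, 1.36, 1.27, 1.39 and 1.29 in void mice 10, 11, 4, 5 and 9, and 1.30, 1.28, 1.28, 1.41 and 1.39 in DHT mice 1, 2, 3, 5 and 6. The groups overlapped almost fully, with means of 1.31 ± 0.058 and 1.33 ± 0.064 and a difference of 0.022, smaller than the SD within either group (0.0017 to 0.0411 with single mice left out). The value differed between references: against the excitatory neuron genes, a comparison added after the values were seen, the members' mean was 0.998, 0.990, 1.04, 1.27 and 0.964 in those void mice and 0.813, 0.988, 1.04, 0.989 and 0.946 in those DHT mice, with means of 1.05 ± 0.124 and 0.956 ± 0.087 and a difference of -0.096 that was smaller than the SD in void but not in DHT mice and was -0.042 without void mouse 5. Against the inhibitory neuron genes, also added after the values were seen, the means were 3.74 ± 0.054 and 3.72 ± 0.128. The difference of -0.020 turned to 0.028 without DHT mouse 3. When edgeR was rerun with libraries scaled to the 15 general neuron genes, the table-wide median log2 fold change moved to 0.15 and 84.7% of genes were above 0. The members' median was then 0.052, and Snap25 (0.042), Vamp2 (0.077), Cplx1 (0.088), Cplx2 (0.082), Syp (0.062) and Syn1 (0.032) lay above 0, while Stx1a (-0.12) and Syt1 (-0.070) remained below it. Again 0 of 8 were called and 0 had an unadjusted p under 0.05. Each of the 8 was below the shifted median of all genes.

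**Figure D2:**
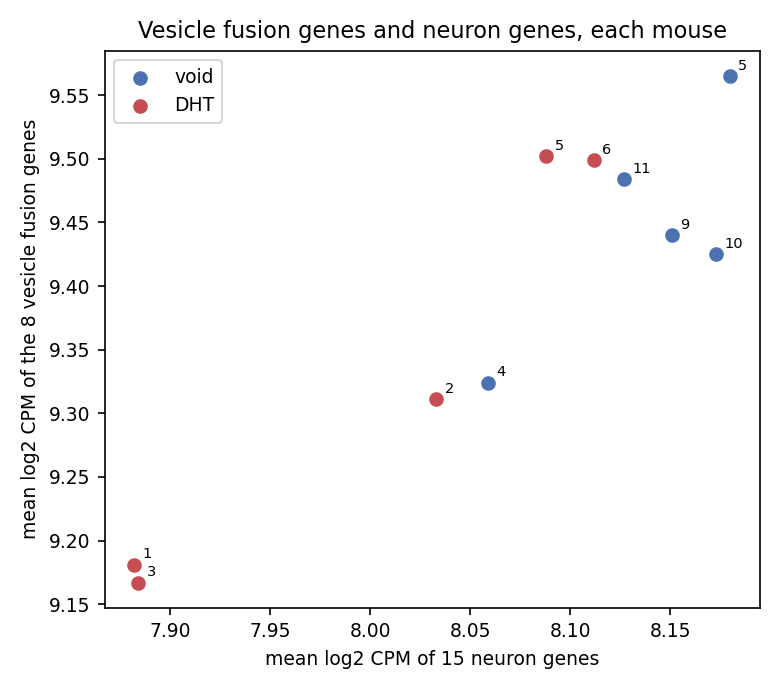
Mean log2 CPM of the 8 vesicle fusion genes against that of 15 neuron genes in each void (blue) and DHT (red) mouse, with mouse numbers. DHT mice 1 and 3 are lowest on both axes, DHT mice 5 and 6 lie among the void mice, and the members minus neuron genes averaged 1.31 in void and 1.33 in DHT mice.

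Choroid plexus and microglia genes moved with treatment in the same libraries. Over all tested genes edgeR called 5.22% higher and 0.261% lower, the shares to set beside the counts of calls below. All 12 choroid plexus genes were above 0 and edgeR called 5 higher, with summed levels of 929, 361, 1717, 390 and 3259 CPM in void mice 10, 11, 4, 5 and 9 and 5721, 4089, 4199, 3894 and 4336 CPM in DHT mice 1, 2, 3, 5 and 6. Their most abundant gene, Enpp2, had 628 ± 472 CPM in void and 2059 ± 398 in DHT mice, and none was at 0 in any mouse. All 11 microglia genes were above 0 and 8 were called higher, with summed levels of 432, 359, 342, 364 and 389 CPM in void and 803, 502, 564, 658 and 607 CPM in DHT mice in the same order, led by Csf1r at 103 ± 10.2 and 151 ± 19.5 CPM, and again none was at 0. Of 9 astrocyte genes 8 were above 0 and edgeR called 1, Gfap (431 ± 95.3 CPM in void and 976 ± 254 in DHT mice, log2 fold change 1.18, adjusted p = 0.00761), with summed levels of 6693, 6667, 5915, 8278 and 6164 CPM in void and 8578, 6783, 7104, 7151 and 7064 CPM in DHT mice, led by Slc1a2 at 4407 ± 696 and 4288 ± 362 CPM. Of 8 oligodendrocyte genes 7 were above 0 and none was called, with summed levels of 3212, 2286, 2560, 2655 and 2844 CPM in void and 3101, 2834, 2901, 3118 and 3261 CPM in DHT mice, and no gene of either list was at 0. None of 7 endothelial, 3 oligodendrocyte precursor and 6 meningeal genes was called, with median log2 fold changes of -0.046, 0.023 and -0.16. DHT mouse 1, with the highest sum for the choroid plexus, microglia and astrocyte lists, was the lowest mouse for Stx1a and Syt1. With the mean log2 CPM of the choroid plexus genes as a covariate, 6 members had log2 fold changes above 0 beside 51.8% of all genes: Snap25 (0.038), Stx1a (0.060), Vamp2 (0.077), Cplx1 (0.041), Syt1 (0.086) and Syp (0.0078). Cplx2 (-0.087) and Syn1 (-0.092) stayed below 0, the SE of Snap25 grew from 0.062 to 0.092, and edgeR then called no gene of the table in either direction. The covariate itself ran from 2.29 to 6.12 in void and from 6.44 to 7.21 in DHT mice, without overlap. A fit with it can therefore hardly separate choroid plexus level from treatment. The part of choroid plexus or glial RNA in the members' values was not tested beyond this fit.

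**Figure D3:**
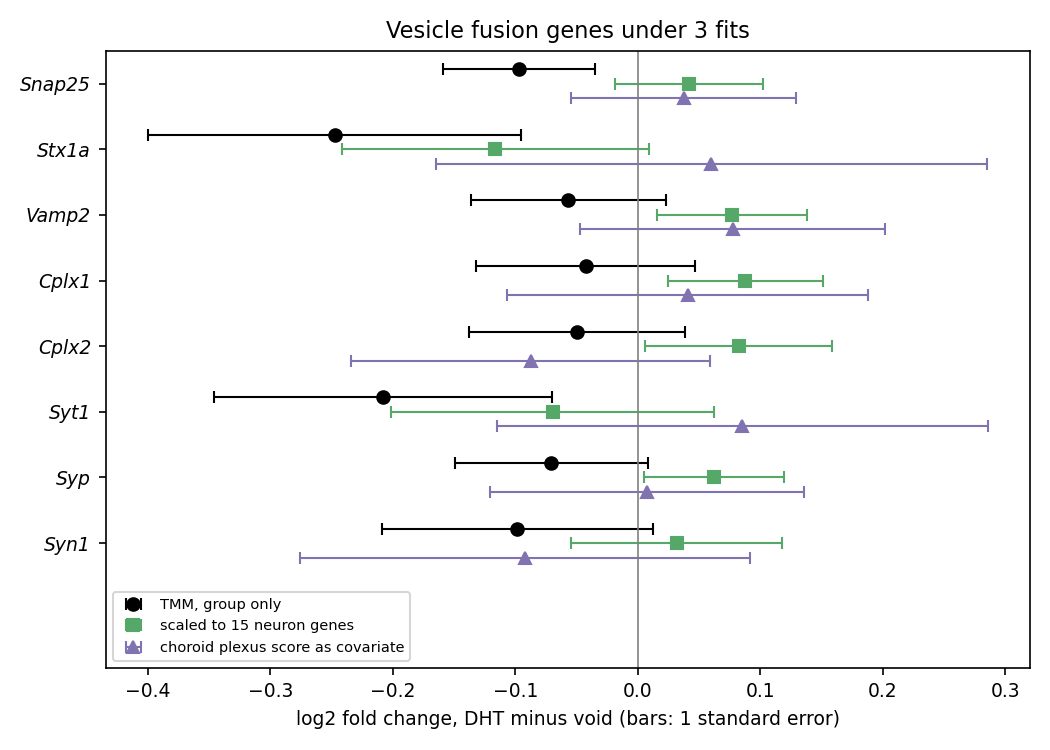
Log2 fold change (DHT minus void) of each member with its standard error as a bar, in the fit on group alone with TMM scaling (black circles), with libraries scaled to 15 neuron genes (green squares), and with the choroid plexus mean as a covariate (purple triangles). All 8 black points lie below 0, 6 green points and 6 purple points lie above it, and no estimate passed the test.

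Ratios between paralogs do not depend on how libraries are scaled. Cplx1 to Cplx2 was 0.319 ± 0.029 counts per count in void and 0.319 ± 0.021 in DHT mice, and Syn1 to Syn2 was 0.786 ± 0.076 and 0.789 ± 0.092. Vamp2 to Vamp1 was 7.59 ± 0.515 in void and 7.68 ± 0.082 in DHT mice. These ratios of complexins, synapsins and synaptobrevins thus had nearly equal group means. For Syt1 to the slower calcium sensor gene Syt7 the means were 3.73 ± 0.455 and 3.49 ± 0.93, and for Syp to its relative Synpr 7.15 ± 0.597 and 7.66 ± 1.19. Two-sided exact permutation tests of the 5 log2 ratios gave p = 0.683 for Vamp2 to Vamp1, 0.929 for Cplx1 to Cplx2, 0.976 for Syn1 to Syn2, 0.587 for Syt1 to Syt7 and 0.413 for Syp to Synpr, where 0.00794 is the smallest p these groups can give, and 0.976 for each after Benjamini-Hochberg adjustment over the 5 ratios reported. None of these 5 ratios separated the groups.

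Levels between genes were compared in RPKM, which is CPM divided by the length of the union of exons in kilobases. In void mice the order was Cplx2 at 302 ± 19.2 RPKM, Snap25 at 258 ± 16.4, Vamp2 at 229 ± 14.4, Cplx1 at 216 ± 9.98, Syp at 184 ± 9.18, Syt1 at 173 ± 24.2, Syn1 at 163 ± 14.3 and Stx1a at 27.4 ± 5.73. Ranges over the mice overlapped between neighbours except between Cplx1 and Syp and between Syn1 and Stx1a. In DHT mice the order differed only in that Syn1 (153 ± 26.9 RPKM) preceded Syt1 (149 ± 29.1 RPKM), and only Stx1a (23.1 ± 4.66 RPKM) lay apart from its neighbour. Stx1a was thus the least abundant member per length in both groups. With the longest transcript as the length, Vamp2 (396 ± 24.8 RPKM in void mice) came first and Stx1a (33.7 ± 7.05 RPKM) again last, so the order at the top depends on the length used.

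Most pairs of members varied together from mouse to mouse. Over all 10 mice Syt1 followed the members' mean least, but without the 2 mice farthest from the median Cplx2 did. Of 28 pairs, 26 had a Pearson r above 0 over the 10 mice, with a median of 0.691, and after centring on the group means the median was 0.678. The shared scaling of each library enters every pair, and no r of pairs of other genes is given beside these. The part of neuron content in them was not tested. Cplx1 and Syp were the closest pair (r = 0.975, rho = 0.964, centred r = 0.982), followed by Vamp2 and Syp (0.967) and Vamp2 and Cplx1 (0.954). Syt1 had an r of 0.592 with Stx1a, 0.442 with Snap25, 0.257 with Syp, 0.241 with Vamp2, 0.214 with Cplx1 and -0.0086 with Syn1, and its pair with Cplx2 was the lowest at -0.286. The pairs of Cplx2 with the other members ran from 0.302 with Stx1a and 0.366 with Snap25 to 0.678 with Vamp2, 0.744 with Cplx1, 0.764 with Syp and 0.838 with Syn1. The r with the members' mean z-score, a mean that includes each gene itself, was 0.379 for Syt1 and 0.682 for Cplx2 (0.345 and 0.187 without the 2 mice farthest from the median), against 0.982 for Syp and 0.964 for Vamp2. Among the other genes most like the members' mean over the 10 mice were Rtn1 (r = 0.977), the long intergenic RNA B230217O12Rik (0.975), Sncb (0.962) and Ndrg4 (0.961), and they kept an r of 0.922, 0.922, 0.918 and 0.867 without the 2 mice farthest from the median. Of these, Sncb encodes the presynaptic protein beta-synuclein.

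Since several members moved together, the 250 bases upstream of their annotated starts were read from a set of RefSeq windows (GRCm38.p6). In this set 6 of the 8 genes matched an entry, with 7 windows because Syt1 has a pair of starts. The set used here held no entry for Snap25 and Vamp2. Both strands were searched for the cyclic AMP response element TGACGTCA, the nuclear receptor core site AGGTCA, the androgen receptor core site AGAACA and the GC box GGGCGG. Among all 32851 windows of this length 1.55% hold TGACGTCA, 14.0% AGGTCA, 16.1% AGAACA and 32.7% GGGCGG. In the member windows TGACGTCA occurred for Syn1 only, AGGTCA for 1 window of Syt1, AGAACA for Syp only, and GGGCGG for Cplx1, Stx1a, Syp and the other window of Syt1, while the Cplx2 window held none of these letters. That window, chr13:54302306-54302555, ends well before position 54371349, where Cplx2 starts in GENCODE M21, and so describes another annotated start. In GENCODE M21 Syp starts at 7638471, inside its window, so the GGGCGG matches of Syp lie within the gene. The Syn1 window crosses the start at 20921004. Of the Syt1 windows, the one with AGGTCA lies within the gene and the other crosses the start at 109010982. The windows of Cplx1 (chr5:108550028-108550277, minus strand), Syp (chrX:7638330-7638579, plus strand) and Syn1 (chrX:20920919-20921168, minus strand) are shown because these genes moved most closely together among members with an entry. Each is written 5′ to 3′ along the gene, with the matches in capitals (CCGCCC is GGGCGG on the other strand).
Cplx1: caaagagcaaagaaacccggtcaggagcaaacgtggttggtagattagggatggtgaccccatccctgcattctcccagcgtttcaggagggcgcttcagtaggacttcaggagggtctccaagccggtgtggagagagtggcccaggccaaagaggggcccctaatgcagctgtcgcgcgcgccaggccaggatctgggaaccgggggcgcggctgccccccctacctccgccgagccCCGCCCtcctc
Syp: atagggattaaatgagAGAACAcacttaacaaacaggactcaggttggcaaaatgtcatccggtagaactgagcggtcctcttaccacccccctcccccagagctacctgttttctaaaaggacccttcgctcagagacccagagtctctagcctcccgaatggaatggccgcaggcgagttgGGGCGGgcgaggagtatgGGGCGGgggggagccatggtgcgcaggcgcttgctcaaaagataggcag
Syn1: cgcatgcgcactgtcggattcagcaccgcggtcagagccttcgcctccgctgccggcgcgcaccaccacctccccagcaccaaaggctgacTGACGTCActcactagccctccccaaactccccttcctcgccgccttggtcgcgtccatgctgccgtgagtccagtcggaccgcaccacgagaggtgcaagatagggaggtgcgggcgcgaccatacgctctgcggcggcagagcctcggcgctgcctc
Cplx1 and Syp, the pair with the highest r, both held GGGCGG and Syn1 did not, so no motif was shared by all 3 windows, and a match describes letters only.

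Other genes of the vesicle cycle gave the setting for the members. Of 96 genes on 5 lists, 94 were tested, and edgeR called 2 higher and 0 lower (5.22% and 0.261% over all genes), with 9 higher and 16 lower at an unadjusted p under 0.05 (13.1% and 4.22% over all genes). DESeq2 called 3 higher and 6 lower (5.89% and 1.09% over all genes). Of the 94, 70 had log2 fold changes below 0 (74.5%), with a median of -0.064 (-0.113 to -0.0637 with single mice left out) beside 0.0094 for all genes, and with libraries scaled to neuron genes 25 of the 94 were below 0 but 73 below the median of all genes. Abundant genes also tended below 0 in the TMM-scaled fit. Of the 3477 tested genes within the members' range of void CPM, 2328 were below 0, with a median of -0.040. Not all of the 94 lie in that range. Of the genes called by edgeR, Vamp8, a vesicle SNARE of endosomes and secretory granules, measured 4.91, 5.39, 7.10, 6.87 and 8.41 CPM in void mice 10, 11, 4, 5 and 9 and 17.95, 11.2, 14.2, 12.8 and 12.1 CPM in DHT mice 1, 2, 3, 5 and 6. All DHT mice were above all void mice, with a log2 fold change of 1.06, an SE of 0.16 and an edgeR adjusted p of 0.00761. Stxbp3, which encodes the syntaxin-binding protein Munc18c, had 25.5 ± 1.86 CPM in void and 35.3 ± 5.80 in DHT mice (log2 fold change 0.47, SE 0.11, edgeR adjusted p = 0.0249), a call that was lost without void mouse 10, 11 or 4 or DHT mouse 1 or 3 (adjusted p = 0.0595, 0.101, 0.0666, 0.0942 and 0.0851), with log2 fold changes of 0.47, 0.42, 0.46, 0.37 and 0.39. Neither call held with the choroid plexus covariate (edgeR adjusted p = 0.600 and 0.630), a fit that called no gene of the whole table. The covariate did not overlap between the groups, so the loss of these calls says nothing particular about either gene. In that fit the log2 fold change of Vamp8 was 0.68 with an SE of 0.24 and that of Stxbp3 0.50 with an SE of 0.19.

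By list, the other SNAREs had a median log2 fold change of 0.079 over 10 tested genes, from -0.10 for Vamp4 (-0.165 to -0.0475 with single mice left out) to Vamp8. SNARE cofactors had a median of -0.089 over 18, from -0.37 for Prrt2 (-0.598 to -0.196 with single mice left out), at only 0.420 CPM in void mice, to Stxbp3. The other synaptotagmins, with the related Doc2 genes, had a median of -0.089 over 15, from -0.41 for Syt2 (edgeR adjusted p = 0.0908, and a log2 fold change of -0.011 with the choroid plexus covariate) to 0.034 for Syt12. Other vesicle proteins had a median of -0.090 over 27, from -0.47 for Sv2c (edgeR adjusted p = 0.285) to 0.61 for Syngr2 (edgeR adjusted p = 0.0850). Vesicle endocytosis genes had a median of -0.042 over 24, from -0.16 for Dnm3 to 0.18 for Dnm2, the widely expressed dynamin. The genes that DESeq2 called lower, chosen for mention after their values were seen, were Cadps2 (-0.27), Napb (-0.16), Syt2 (-0.44), Syt17 (-0.35), Sh3gl2 (-0.17) and Itsn1 (-0.19), and it called Syngr2 (0.58) higher beside Vamp8 and Stxbp3.

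**Figure D4:**
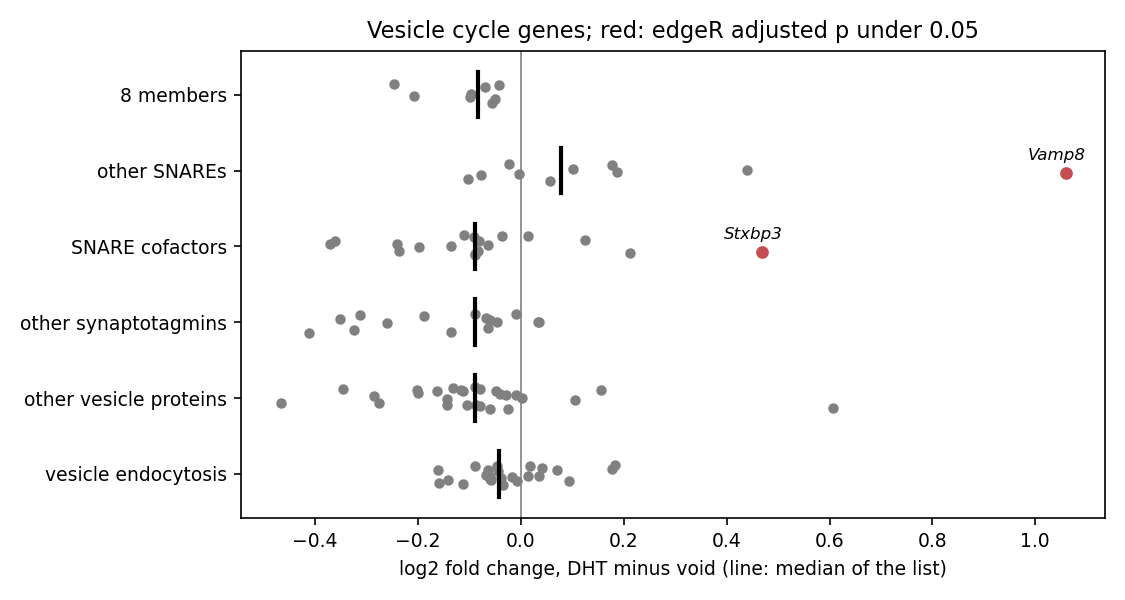
Log2 fold change (DHT minus void) of the 8 members and of the tested genes of 5 other vesicle cycle lists, each point a gene, black lines the list medians and red points genes with an edgeR adjusted p under 0.05. The members lie from -0.25 to -0.043, a direction that turns for 6 of 8 when libraries are scaled to neuron genes, where 84.7% of all genes are above 0, and the called genes are Vamp8 at 1.06 and Stxbp3 at 0.47.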

How the data were processed

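Total RNA of each hippocampus was made into mRNA libraries, which the authors sequenced, trimmed with HTStream and aligned with STAR 2.7.10b. The authors deposited raw counts per gene, and the genome is given as mm10 in the methods of the study and as mm39 in the submitters' processing notes. The annotation release and the use of strand in counting are not given in the sources used here. Of 56884 gene identifiers, 51948 matched a symbol in GENCODE M21, 51911 of them under a later version of the identifier, so the exon lengths behind RPKM come from an older annotation than the counts. Of the listed vesicle cycle genes, Vamp7 had no match. Transcripts of Cplx2 share stretches of at least 97% identity, up to 259 bases long, with those of 5 other genes, and how such reads were split is not known.

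Counts were tested in edgeR 4.0.16 under R 4.3.3 (filterByExpr, TMM, quasi-likelihood F test on group, Benjamini-Hochberg adjustment over 17622 genes, calls at an adjusted p under 0.05), after the same code was tested on simulated counts. DESeq2 1.42.0, other scalings and filters, a choroid plexus covariate and leaving out each mouse were the alternatives. CPM were TMM scaled, log2 CPM had a prior count of 2, and each SE came from the F statistic (absolute log2 fold change over √F). Of other lists, genes called and those with the lowest and highest log2 fold change were named, and of cell type lists the most abundant gene. Of the genes and ratios planned, 5 listed genes and 1 paralog ratio were removed from the lists after testing and are not reported here. The members and lists were chosen with earlier results of these data known.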

Additional observations from a re-analysis of the deposited data

Results flagged for a closer look

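Within each group of 5 mice, the gap between the most extreme mouse and its neighbour was divided by the range of the group (Dixon's ratio) and set against the limit of 0.71. Among 66 groups examined 4 were above it, where chance alone passes about 1 in 20 groups, or 3.3 here. Of these, 2 concerned void mouse 5: it was the highest void mouse for log2 CPM of Stx1a (ratio 0.726) and for the log2 ratio of Cplx1 to Cplx2 (0.769). Its raw count ratio of Cplx1 to Cplx2 was 0.369, where the other void mice had 0.301 to 0.316. DHT mouse 3 was the lowest DHT mouse for log2 CPM of Cplx2 (0.713), and DHT mouse 1 was the highest DHT mouse for the mean log2 CPM of the choroid plexus genes (0.728). The causes were not tested.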

How the results depend on the processing

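No member was called by edgeR or DESeq2 under any of 17 alternatives, and of 136 log2 fold changes of members under them 124 kept their sign. The other 12 turned: with neuron gene scaling Snap25 (0.0418), Vamp2 (0.0772), Cplx1 (0.0879), Cplx2 (0.0823), Syp (0.0622) and Syn1 (0.0317), and with the choroid plexus covariate Snap25 (0.0375), Stx1a (0.0601), Vamp2 (0.0774), Cplx1 (0.0407), Syt1 (0.0855) and Syp (0.0078). Vamp4 turned with neuron gene scaling (0.0425), Prrt2 (0.345) and Syt12 (-0.117) with the covariate, and Syt12 ranged from -0.0376 to 0.0888 over single mice left out. Without turning, Syt2 (-0.0111) and Syngr2 (0.179) came nearer to 0 with the covariate and Dnm3 (-0.0224) with neuron gene scaling.

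Over all genes, the 920 higher and 46 lower calls became 2134 and 6 with neuron gene scaling, 0 and 0 with the covariate, 382 and 4 beyond a log2 fold change of 1, and 351 to 1072 and 5 to 77 without single mice, and DESeq2 called 226 lower. Of the wider vesicle genes, the 2 higher and 0 lower calls became 7 higher with neuron gene scaling, 0 with the covariate and 1 to 3 without single mice, and 6 lower with DESeq2 and 0 to 1 without single mice. The log2 ratios ranged without single mice from -0.0142 to 0.0518 for Vamp2 to Vamp1, -0.015 to 0.0585 for Cplx1 to Cplx2, -0.0548 to 0.052 for Syn1 to Syn2 and -0.252 to 0.0274 for Syt1 to Syt7, while Syp to Synpr kept its sign (0.0148 to 0.152). The members' mean relative to neuron genes, 0.0223, became -0.0963 with excitatory neuron genes as the reference (-0.0422 without void mouse 5). With inhibitory neuron genes as the reference it became -0.0204 (0.028 without DHT mouse 3). Both references were alternatives added after the values were seen. Apart from fewer mice or a stricter rule, the causes were not tested.

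Each member had at least 1793 counts per mouse, and what depth adds to the intervals was not tested. No paired analysis was possible because the sample labels used here name no litter or other pairing.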
